A study of Mus musculus with 24 samples.

Results

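The genes described here build ribosomes or supply that work: 42 mouse genes for nucleolar proteins, ribosome assembly factors, RNA polymerase I subunits, and the polyamine, nucleotide and translation factors often counted with them. They were taken as the probe sets whose gene symbol in the platform annotation is one of the 42, with the brightest probe set standing for a gene. Of the 42, 39 had a probe set of their own, out of 8251 genes with one on the array. Of these, 37 were tested, out of 5816 genes tested in all. Npm3 and Dkc1 had no probe set, Mrto4 only one shared with 2 pseudogenes, and Wdr12 and Eif4e were too dim to be tested. To be tested, a gene had to exceed the median signal of the array on 2 or more of the 24 arrays.

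The 22 tumour arrays held RNA of 11 cell lines, A2B1, A2C12, B3, betaD5, betaD10, cRAF_cMYC, gammaA3, gammaA7, gammaB8, gammaD1 and gammaD12, all grown out of lung tumours of 8 months old mice that carried both a c-Myc and a c-Raf transgene. They were kept in culture, with calf serum in the medium and a passage each week, for no more than 50 passages. The 2 control arrays are labelled as alveolar type II cells, the cells that secrete surfactant in the lung, taken from healthy animals without the transgenes, whose age the labels do not give. Lines and control therefore differ in transgenes, in tumour origin and in long-term culture, and these cannot be told apart. A2C12, B3, cRAF_cMYC, gammaA7 and gammaB8 have 3 arrays each, A2B1 has 2 and the other 5 lines have 1. The sources used here do not give the promoter driving each transgene, whether a line is 1 clone, or whether repeat arrays came from separate cultures. The p-values of lines against control cover only the spread between line means and between the 2 controls. For the slope on Myc over lines they cover only the spread between line means. For each line against control and the test among lines they cover only the spread between arrays of a group, which may be partly technical.

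Ribosome assembly starts in the nucleolus, where RNA polymerase I transcribes the ribosomal RNA genes into a long precursor. Small nucleolar RNPs (snoRNPs) then guide its methylation (box C/D) and pseudouridylation (box H/ACA), and helicases, GTPases and scaffold proteins fold and cut it into the RNAs of the small and the large subunit. Myc, the transcription factor encoded by one of the transgenes, is known to activate many genes of this process, ornithine decarboxylase and Cad among them, and to bind as a dimer with Max to the E-box CACGTG.

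RefSeq start-site windows (build GRCm38.p6, 250 bases before to 50 after an annotated start) matched 36 of the 42 genes. The letters CACGTG, which read the same on both strands, were in a window of 7 of the 36 genes, 19.4%, against 8.09% of all 27025 genes with a window. By window, 8 of the 46 held it, against 7.15% of 32851 windows of all genes. Of the genes whose signal was higher in the lines (below), 5 of the 20 with a window held it, and of those tested and not called 1 of 11. The windows of these 6 genes are printed except the further Nme1 window, in the order Nop2, Pes1, Wdr43, Ran, Nme1 and Eif4a1, to show where the letters lie, and Nop56, the gene with the largest rise, is added as one without them. Capitals mark the E-box. With base 251 of a window counted as position 1, the E-box began at -60 in Nop2, 3 in Pes1, 18 in Wdr43, -118 in Ran, -18 in Nme1 and -189 in Eif4a1.
Nop2, chr6:125131633-125131932, plus strand: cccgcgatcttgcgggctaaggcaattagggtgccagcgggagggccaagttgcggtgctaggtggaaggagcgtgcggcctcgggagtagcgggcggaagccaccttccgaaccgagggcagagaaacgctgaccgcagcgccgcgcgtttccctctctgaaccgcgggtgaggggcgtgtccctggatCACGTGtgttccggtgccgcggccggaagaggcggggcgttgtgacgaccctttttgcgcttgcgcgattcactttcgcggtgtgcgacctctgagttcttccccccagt
Pes1, chr11:3963725-3964024, plus strand: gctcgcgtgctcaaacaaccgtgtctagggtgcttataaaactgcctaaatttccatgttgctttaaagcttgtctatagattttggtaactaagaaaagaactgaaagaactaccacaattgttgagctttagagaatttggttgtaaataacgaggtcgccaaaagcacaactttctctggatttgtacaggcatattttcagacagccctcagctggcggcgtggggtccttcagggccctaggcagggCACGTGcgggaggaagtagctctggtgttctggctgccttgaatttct
Wdr43, chr17:71615965-71616264, plus strand: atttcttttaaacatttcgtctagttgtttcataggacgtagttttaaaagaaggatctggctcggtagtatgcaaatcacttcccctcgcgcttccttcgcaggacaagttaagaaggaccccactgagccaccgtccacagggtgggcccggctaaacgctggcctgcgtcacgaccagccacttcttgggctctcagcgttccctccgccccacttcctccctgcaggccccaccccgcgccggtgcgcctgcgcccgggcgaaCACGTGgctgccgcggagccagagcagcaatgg
Ran, chr5:129019906-129020205, plus strand: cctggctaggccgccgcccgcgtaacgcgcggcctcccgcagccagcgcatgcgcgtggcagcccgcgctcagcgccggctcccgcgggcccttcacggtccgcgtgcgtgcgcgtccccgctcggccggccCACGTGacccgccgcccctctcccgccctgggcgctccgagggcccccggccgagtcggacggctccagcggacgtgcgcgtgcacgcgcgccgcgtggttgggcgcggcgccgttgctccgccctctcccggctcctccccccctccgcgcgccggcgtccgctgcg
Nme1, chr11:93968223-93968522, minus strand: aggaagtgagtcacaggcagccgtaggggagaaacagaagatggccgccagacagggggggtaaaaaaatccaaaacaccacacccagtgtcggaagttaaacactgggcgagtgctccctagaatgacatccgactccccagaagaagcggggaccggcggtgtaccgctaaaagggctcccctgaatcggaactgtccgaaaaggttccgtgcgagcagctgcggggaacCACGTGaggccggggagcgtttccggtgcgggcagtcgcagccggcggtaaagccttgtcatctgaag
Eif4a1, chr11:69672374-69672673, minus strand: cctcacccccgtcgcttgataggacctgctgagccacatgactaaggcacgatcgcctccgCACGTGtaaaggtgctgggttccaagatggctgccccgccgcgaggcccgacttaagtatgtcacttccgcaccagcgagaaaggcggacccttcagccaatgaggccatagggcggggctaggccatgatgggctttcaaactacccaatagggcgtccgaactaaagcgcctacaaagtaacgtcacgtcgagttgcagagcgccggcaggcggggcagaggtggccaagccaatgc
Nop56, chr2:130274162-130274461, plus strand: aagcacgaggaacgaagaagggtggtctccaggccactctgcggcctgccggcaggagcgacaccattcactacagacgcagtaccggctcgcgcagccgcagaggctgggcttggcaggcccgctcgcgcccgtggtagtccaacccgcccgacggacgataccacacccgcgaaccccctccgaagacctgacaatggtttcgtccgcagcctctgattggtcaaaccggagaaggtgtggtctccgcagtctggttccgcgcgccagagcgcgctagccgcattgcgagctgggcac
A match of 6 letters is a description of the window and no measure of binding. Eif4a1 holds the letters and was not called in the lines, whereas Nop56 lacks them and had the largest difference.

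Some arrays stood apart or went against their labels. Of the 17 arrays of lines with repeats, 8 were most like an array of another label, by correlation of deviations from the mean of all tumour arrays. The arrays labelled cRAF_cMYC replicate 1 and gammaA7 replicate 1 correlated at 0.73 and the 2 labelled replicate 2 at 0.832, while replicates 1 and 2 of the same label correlated at -0.032 for cRAF_cMYC and -0.0127 for gammaA7. For gammaB8 the labels also disagree, since the sample titles give gammaB8 and the cell line field gammaA8, and the title was used. For B3 and gammaB8, the unnumbered array correlated at most at 0.106 and -0.125 with the numbered arrays of their own label. The array A2B1 replicate 1 had the lowest signal of all 22 tumour arrays for 29 of the 37 tested genes. The share of all tested probe sets lowest on that array is not given here. The 2 controls also differed: the summed signal of 7 measured type II markers was 1452 on control 1 and 29810 on control 2, against 38.6 to 147 on the tumour arrays. The summed signal of 15 myeloid markers was 53330 on control 1 and 32490 on control 2, against 626 to 2126 on the tumour arrays. On control 1 the markers Slc34a2, Hc and Chil1 gave 58.5, 19.8 and 51.2, and on control 2 they gave 5029, 1173 and 1245. Several of the counts and calls that such an array or label decides are given below with and without it.

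The first comparison asked which of these genes differ in level between the tumour lines and the 2 control preparations, of which control 1 was low in type II markers. On the log2(signal + 32) scale, 25 of the 37 tested genes were called higher in the lines and 0 lower, where a call needs both an adjusted p below 0.05 and a change of 2-fold or more. That is 67.6% of the genes, against 16.5% of all 7670 tested probe sets called higher and 21.4% called lower. The median log2 difference, lines minus control, was 1.68 over the 37 genes and -0.05 over all tested probe sets. All 22 tumour arrays lay above both control arrays for 24 of the 37 genes, against 18.6% of all tested probe sets. Ncl, Ddx21, Pa2g4, Rrs1, Srm and Cad missed this only on A2B1 replicate 1. Nolc1, Ppan, Ftsj3 and Surf6 lay below the array median on both controls, which was 93.8 on control 1 and 108 on control 2. They passed the filter only through tumour arrays. All are among these 24 genes, and all but Surf6 among the 25 calls, so for them these counts carry no separate weight. The share of such probe sets among all tested is not given here. Without the lines cRAF_cMYC and gammaA7 the count of calls was 24, and the share of all tested probe sets in that fit is not given here. Fits without control 1 or control 2 are given below for single genes, without a count. Of all calls, 43.6% were higher, 54.9% under quantile normalization and 72.4% under median centring. Quantile normalization called 27 of the 37 genes higher, beside 1671 of the 7670 tested probe sets. Median centring called 33, beside 2421, where the unscaled signals gave 1265. In RNA of bulk cultures, more cells that use a gene and more RNA per cell cannot be told apart.

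The summed signal of 13 measured markers of cycling cells was 5918 to 22640 on the tumour arrays, against 3861 on control 1 and 2354 on control 2. The ratio of 3' to 5' actin probe sets, which rises as RNA degrades, was 1.03 to 1.32 on the tumour arrays, against 1.47 and 1.64 on the control arrays. Markers of other cell types differed as well: 4 of club and ciliated cells summed to 262 to 598 on the tumour arrays, against 7390 and 19890 on controls 1 and 2. Those of lymphocytes (8 markers) summed to 90.1 to 242 on the tumour arrays, against 1602 and 5277, and those of endothelium (6) to 37.9 to 127, against 744 and 2100. The 7 fibroblast markers summed to 4902 to 26220 on the tumour arrays, against 4720 and 2434. The part of the cell cycle, RNA quality and other cell types in the differences was not tested. Between the controls themselves, 31 of the 37 genes were higher on control 1. The median log2 difference, control 1 minus control 2, was 0.47 over the 37 genes and 0.004 over all tested probe sets. At 2-fold, 5 were higher on control 1 (6.36% of all tested probe sets) and 0 on control 2 (6.05%).

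**Figure D1:**
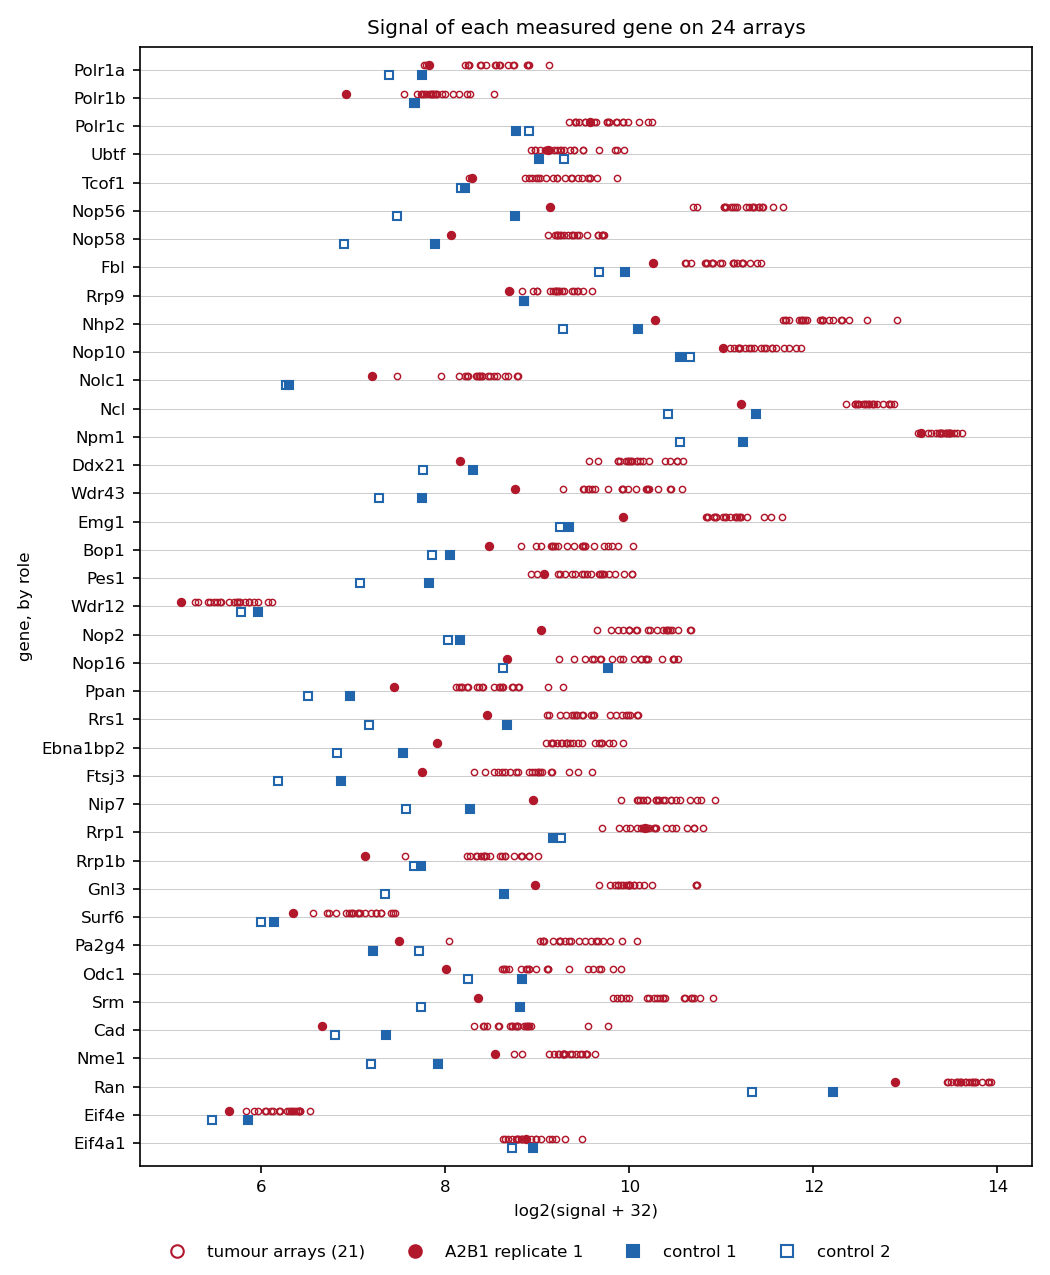
Signals of the 39 measured genes, grouped by role down the page, on the log2(signal + 32) scale. Open circles are 21 tumour arrays, the filled circle is A2B1 replicate 1, and filled and open squares are control 1 and control 2. For most genes the tumour arrays lie to the right of both controls, with A2B1 replicate 1 at their left end, while for Ubtf and Eif4a1 they overlap the controls.

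The counts per role group below stand beside 16.5% of all tested probe sets called higher and 21.4% called lower. The 5 listed genes of RNA polymerase I and its factors had the lowest median of the role groups. None of the 5 genes was called, and their log2 differences ran from 0.10 to 0.92, with a median of 0.72. This depended on the scaling: Polr1a and Tcof1 were called under quantile normalization, and Polr1a, Polr1c and Tcof1 under median centring. Polr1c, a subunit shared by RNA polymerases I and III, had the largest: its signals were 617 at the lowest, 834 at the median and 1186 at the highest of the tumour arrays, against 404 on control 1 and 448 on control 2. The tumour arrays did not overlap the controls, and the log2 difference of 0.92 (SE 0.20, adjusted p = 0.00081) passed the test but fell short of 2-fold. A dimmer probe set of Polr1c went the other way, at 44.2 ± 15.2 (SD, n = 11 lines) against 241 and 216 on the controls, with a log2 difference of -1.80 (adjusted p = 2.7e-06). The direction for Polr1c thus depends on the probe set, and with both averaged it was -0.44. Other polymerase I genes, from a wider list, went both ways. Polr1d, Polr1e and Taf1d were called higher, at log2 differences of 1.46, 1.60 and 3.08, and Taf1b lower, at -1.11. Rrn3, Taf1a, Taf1c and Ttf1 were not called, at 0.999, 0.58, 0.61 and 0.28.

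Tcof1, the nucleolar protein treacle that works with RNA polymerase I, and Polr1a, its largest subunit, passed the adjusted p below 2-fold, at log2 differences of 0.91 (SE 0.25) and 0.72 (SE 0.27). The log2 difference of Tcof1 was 1.095 under quantile normalization and 1.45 under median centring, and the log2 difference of Polr1a 1.09 and 1.26. Without control 2, Polr1a no longer passed the adjusted p, at 0.54 with a limma adjusted p = 0.25, nor did it without control 1 (0.90, limma adjusted p = 0.054) or without cRAF_cMYC and gammaA7 (0.65, limma adjusted p = 0.059). Polr1b, the other large subunit, had a log2 difference of 0.24 (SE 0.19, adjusted p = 0.27). Ubtf, the upstream binding factor that opens ribosomal RNA genes to the polymerase, had signals of 458, 578 and 949 at the lowest, median and highest of the tumour arrays, against 486 and 593 on controls 1 and 2. Its groups overlapped, and the log2 difference of 0.10 had an interval from -0.28 to 0.48, turning to -0.04 without control 1.

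Of 7 tested genes for snoRNP proteins, 5 were called higher, with a median log2 difference of 1.94. Nop56, a core protein of box C/D snoRNPs, had the largest rise of all 37 genes. Its signals were 530, 2353 and 3233 at the lowest, median and highest of the tumour arrays, against 402 on control 1 and 146 on control 2. All tumour arrays were above both controls, the lowest being A2B1 replicate 1. The log2 difference was 2.98 (SE 0.32, adjusted p = 1.2e-06).

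Nop58, its partner in the box C/D particle, had a log2 difference of 1.94 (SE 0.23). Fibrillarin (Fbl), the methyltransferase of the same particle, had signals of 1191, 2007 and 2724 at the lowest, median and highest of the tumour arrays, against 957 and 785 on controls 1 and 2. The groups did not overlap and the log2 difference was 1.13 (SE 0.19), but the log2 difference of Fbl fell short of 2-fold without control 2, at 0.99, and under quantile normalization, at 0.97. Rrp9, which binds the U3 snoRNA, was not called, with a log2 difference of 0.30 (SE 0.15, adjusted p = 0.096).

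Of the box H/ACA proteins, Nhp2 had signals of 1208, 4077 and 7636 at the lowest, median and highest of the tumour arrays, against 1061 and 590 on controls 1 and 2. No tumour array overlapped a control, though A2B1 replicate 1 came close to control 1, and the log2 difference was 2.25 (SE 0.27). Nop10, the smallest protein of the same particle, passed the adjusted p at a log2 difference of 0.83 (SE 0.18), below 2-fold. Nolc1, a chaperone that carries snoRNPs through the nucleolus, had signals of 116, 299 and 412 at the lowest, median and highest of the tumour arrays, against 47.0 and 45.2 on controls 1 and 2. Its lowest tumour array was thus well above both controls, and the log2 difference was 2.06 (SE 0.24).

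Both abundant nucleolar proteins on the array were called higher. Nucleophosmin (Npm1), a histone chaperone that also carries ribosomal particles, had signals of 9012, 10970 and 12510 at the lowest, median and highest of the tumour arrays, against 2378 and 1468 on controls 1 and 2. This was the tightest of the rises: line means spanned only 0.42 on the log2 scale, the smallest span of the 37 genes, and the log2 difference was 2.51 (SE 0.16, adjusted p = 5.3e-09). Nucleolin (Ncl), which binds the precursor RNA, had signals of 2337, 6145 and 7493 at the lowest, median and highest of the tumour arrays, against 2638 and 1343 on controls 1 and 2. Only A2B1 replicate 1, at 2337, fell between the controls, and the log2 difference was 1.65 (SE 0.24).

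The 3 factors tied to the helicase step and the small subunit were all called higher. Wdr43, the mouse counterpart of a yeast small-subunit processing protein, had signals of 402, 942 and 1496 at the lowest, median and highest of the tumour arrays, against 182 and 123 on controls 1 and 2. The groups did not overlap, and the log2 difference was 2.41 (SE 0.27). Its further probe set passed the adjusted p at a log2 difference of 0.71, below 2-fold. The RNA helicase Ddx21 had a log2 difference of 2.03 (SE 0.28), and Emg1, a methyltransferase of the small-subunit RNA, 1.72 (SE 0.20).

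Of the 14 tested genes of large-subunit assembly, 11 were called higher and the other 3 passed the adjusted p below 2-fold. The median log2 difference was 1.80. Nip7, known in yeast for large-subunit processing, had the largest. Its signals were 464, 1245 and 1918 at the lowest, median and highest of the tumour arrays, against 276 and 159 on controls 1 and 2. No tumour array reached down to the controls, and the log2 difference was 2.46 (SE 0.27).

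Pes1 and Bop1, which form the PeBoW complex with Wdr12, had log2 differences of 1.97 (SE 0.25) and 1.33 (SE 0.22). The signals of Pes1 were 456, 724 and 1017 at the lowest, median and highest of the tumour arrays, against 194 and 103 on controls 1 and 2, without overlap. Wdr12 itself was not tested: its signals were 2.90 to 37.6 on the tumour arrays, against 30.6 and 22.9 on the controls, all of them dim. Ftsj3, a processing factor with an RNA methyltransferase domain, had a log2 difference of 2.23 (SE 0.26). Ebna1bp2 had one of 2.16 (SE 0.26). Nucleostemin (Gnl3), a nucleolar GTPase of proliferating cells, had one of 2.02 (SE 0.28). Nop2, a methyltransferase of the large-subunit RNA, had one of 1.99 (SE 0.22). The Nop2 signals were 494, 1156 and 1601 at the lowest, median and highest of the tumour arrays, against 254 and 229 on controls 1 and 2, without overlap.

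The other called genes of this group were Pa2g4 at a log2 difference of 1.89 (SE 0.33), Ppan at 1.72 (SE 0.22), Rrs1 at 1.57 (SE 0.32) and Rrp1 at 1.02 (SE 0.15). Rrs1 depended on the controls, since control 1 had 375 and control 2 had 112, and without control 2 its difference was 0.82 and was not called. The log2 difference of Rrp1 sat at the 2-fold threshold and was below it, at 0.978 to 0.997, without control 1, without the line A2C12 or cRAF_cMYC, or without gammaA7 replicate 2. Averaged with dimmer probe sets of the same gene, Pa2g4 and Bop1 were not called. Those untested probe sets were lower in the lines, at 7.55 against 20.3 and 20.6 for Pa2g4 and 15.1 against 19.4 and 33.8 for Bop1. Surf6, Nop16 and Rrp1b were not called, at log2 differences of 0.94 (SE 0.18), 0.75 (SE 0.30) and 0.72 (SE 0.27). For Nop16, control 1 (841) lay within the tumour range of 374 to 1448, and control 2 (363) below it. The log2 difference of Nop16 was accordingly 1.32 and called without control 1, and 0.18 without control 2 (limma adjusted p = 0.71). The log2 difference of Surf6 was 1.01 and called without control 1, and 1.36 and called under quantile normalization. The log2 difference of Rrp1b was 1.05 and called under quantile normalization, but it did not pass the adjusted p without control 1 (limma adjusted p = 0.105), without control 2 (limma adjusted p = 0.155) or without cRAF_cMYC and gammaA7 (limma adjusted p = 0.058).

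Of the 4 genes of polyamine and nucleotide supply, 3 were called higher. Spermidine synthase (Srm) had signals of 296, 1243 and 1892 at the lowest, median and highest of the tumour arrays, against 418 and 181 on controls 1 and 2. Only A2B1 replicate 1 lay below control 1, and the log2 difference was 1.89 (SE 0.32). The nucleoside diphosphate kinase Nme1 had a log2 difference of 1.68 (SE 0.21), and Cad, which catalyses the first steps of pyrimidine synthesis, 1.61 (SE 0.29). Nme1 was not called when averaged with a dimmer probe set, nor was Cad on numbered arrays alone. Ornithine decarboxylase (Odc1), the first enzyme of polyamine synthesis, had signals of 226, 463 and 932 at the lowest, median and highest of the tumour arrays, against 426 and 272 on controls 1 and 2. Its groups overlapped, and it was not called at a log2 difference of 0.54 (SE 0.26, adjusted p = 0.082).

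Ran, the GTPase that drives nuclear transport, including export of ribosomal subunits, had signals of 7536, 12850 and 15640 at the lowest, median and highest of the tumour arrays, against 4729 and 2557 on controls 1 and 2. The groups did not overlap, and the log2 difference was 1.88 (SE 0.19). The translation initiation helicase Eif4a1 had signals of 362, 432 and 687 at the lowest, median and highest of the tumour arrays, against 465 and 392 on controls 1 and 2. These overlapped, and it was not called, at a log2 difference of 0.06 (SE 0.16) with an interval from -0.29 to 0.40, and without control 2 it was -0.06. The cap-binding protein Eif4e had dim signals of 18.2, 46.3 and 60.4 at the lowest, median and highest of the tumour arrays, against 25.8 and 12.2 on controls 1 and 2, and was not tested. On 20 of the 22 tumour arrays Eif4e lay above both controls.

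**Figure D2:**
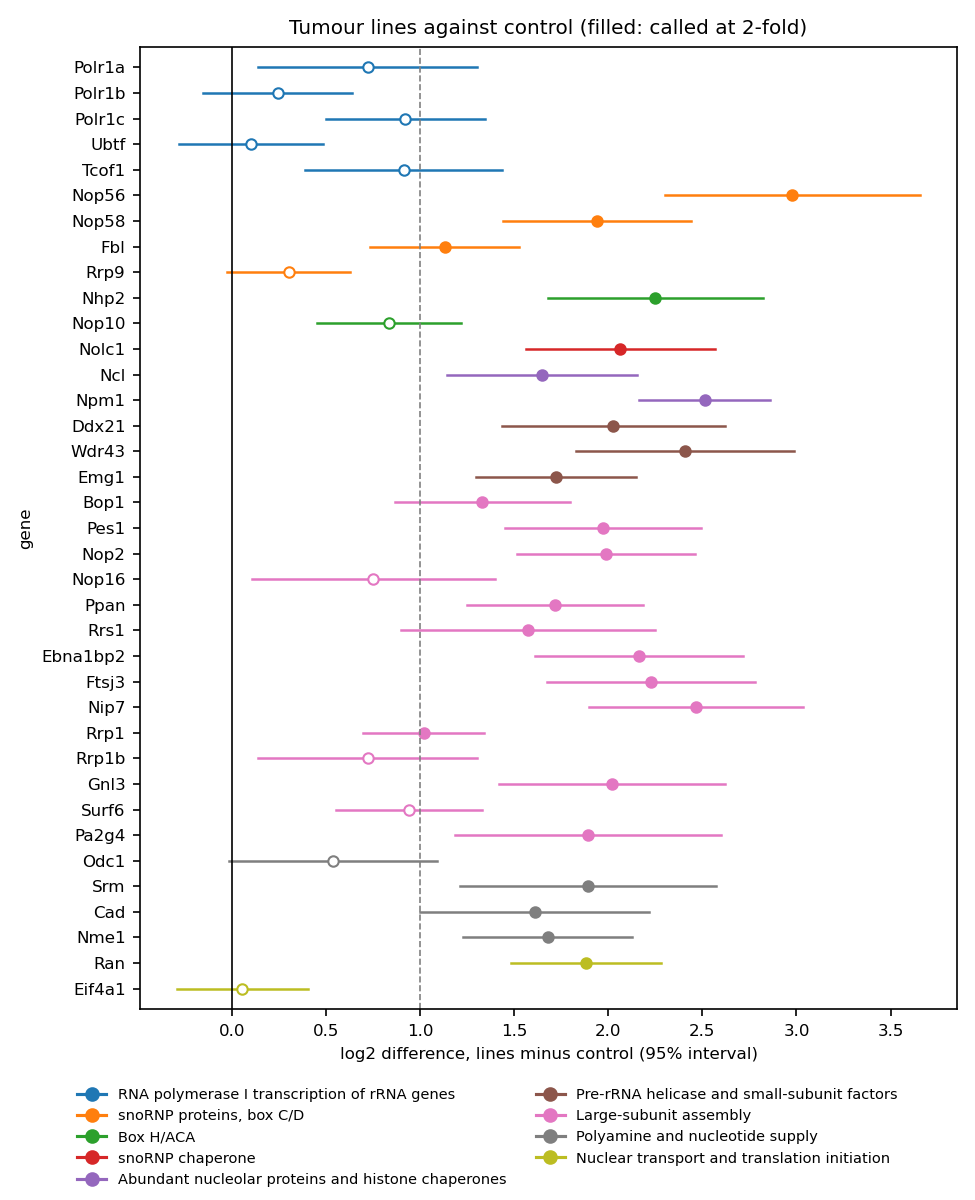
Log2 differences, lines minus control, of the 37 tested genes with their 95% intervals (horizontal lines), on the log2(signal + 32) scale; colours are roles and filled circles are calls. The dashed line marks 2-fold. All 5 genes of RNA polymerase I transcription lie below it, and Nop56 at 2.98 lies furthest to the right.

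Wider lists of the same pathways had more calls higher than lower and smaller medians. In the order below, 50.0%, 35.7% and 43.8% were called higher, against 16.5% of all tested probe sets. Called lower were 1.22%, 3.57% and 12.5%, against 21.4% of all. Of 82 tested other ribosome assembly factors (of 149 listed), 41 were called higher and 1 lower, with a median log2 difference of 1.00. The largest rise was that of Taf1d, a subunit of the RNA polymerase I promoter complex SL1, at 1405 ± 422 (SD, n = 11 lines) against 206 and 75.6 on controls 1 and 2, a log2 difference of 3.08 (SE 0.37). The 1 fall was that of Taf1b, a further SL1 subunit, at 116 ± 20.6 against 193 and 409, a log2 difference of -1.11 (SE 0.22). Of 28 tested other translation initiation factors (of 39 listed), 10 were called higher and 1 lower, with a median of 0.77. Eif3d, a subunit of the initiation factor eIF3, rose most, at 3837 ± 520 against 1126 and 653, and the scaffold protein Eif4g3 fell, at 80.5 ± 35.7 against 305 and 308. Of 16 tested other genes of polyamine and nucleotide synthesis (of 29 listed), 7 were called higher and 2 lower, with a median of 0.55. Nme2, a close relative of Nme1, rose most, at 5818 ± 569 against 2498 and 964, and the adenylosuccinate synthetase Adssl1 fell most, at 18.6 ± 11.2 against 616 and 206.

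The next comparison took each line by itself against the same 2 control arrays, so the 11 contrasts share their controls. Of the 37 genes, 29 were called higher in A2C12 (18.1% of all tested probe sets were). The count was 27 in B3 (17.4%), betaD5 (16.8%), cRAF_cMYC (16.9%), gammaA3 (16.6%), gammaA7 (16.7%) and gammaD1 (16.2%). It was 26 in gammaB8 (16.9%), 24 in gammaD12 (15.6%), 22 in betaD10 (15.7%) and 18 in A2B1 (13.6%). No gene was called lower in any line. A set of 17 genes was called in all 11 lines, against 6.79% of all tested probe sets, Npm1, Nop56, Nop58, Nhp2, Nolc1, Wdr43, Nip7, Nop2, Pes1 and Ran among them. Ncl, Pa2g4, Bop1, Rrs1 and Srm were called in every line but A2B1. Polr1b, Ubtf, Rrp9, Odc1 and Eif4a1 were called in none, as were 71.9% of all.

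**Figure D3:**
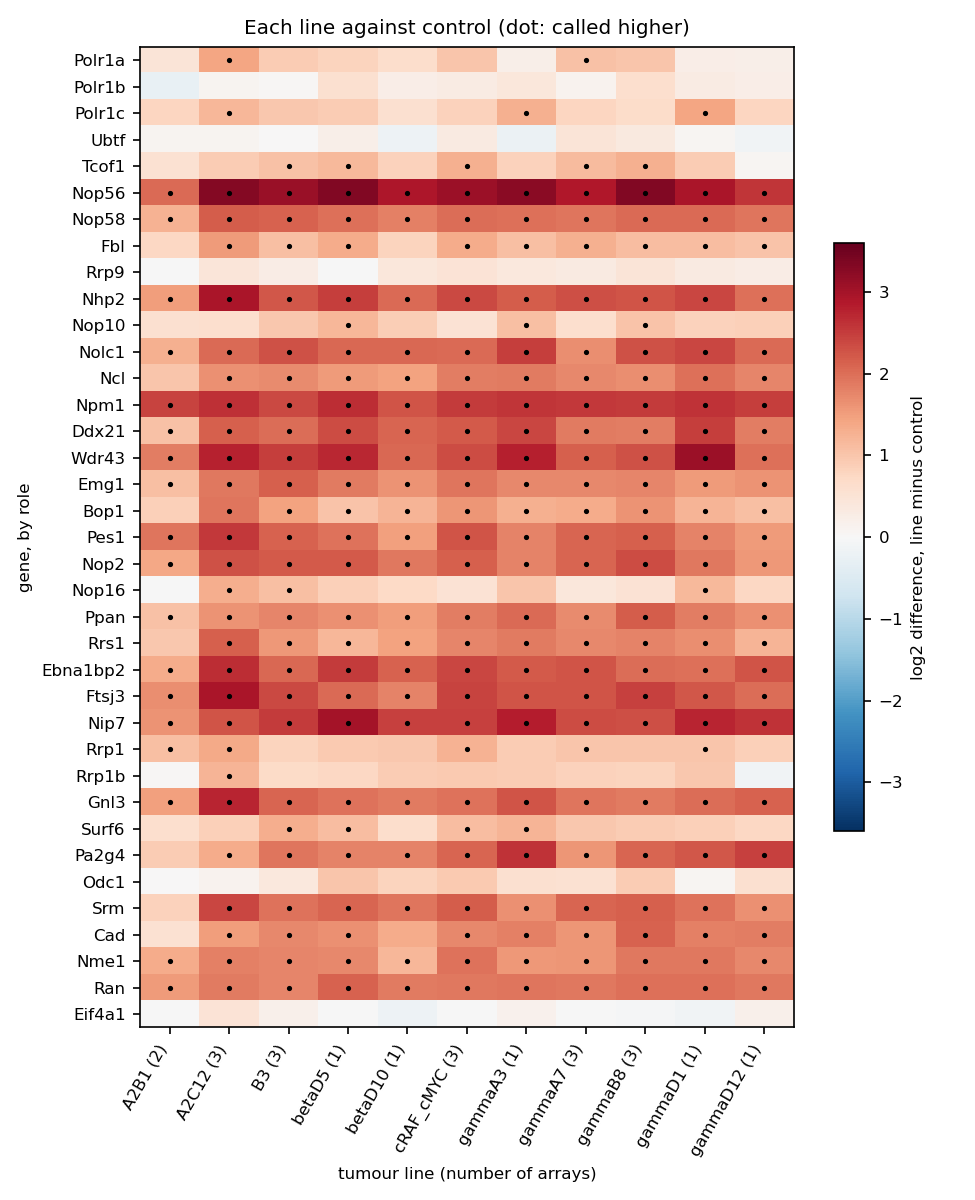
Log2 difference of each tumour line (columns, with the number of arrays) minus control for the 37 tested genes (rows, by role), on the log2(signal + 32) scale, with red for higher and blue for lower. Dots mark genes called higher. Nop56, Nhp2, Npm1 and Nip7 are called in every column, Ubtf and Eif4a1 in none, and A2B1 is the palest column.

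A2B1 had the lowest line mean for 25 of the 37 genes, and A2C12 the highest for 15. The shares of all tested probe sets lowest or highest in these lines are not given here, so the counts cannot be set against them. The median level over the 37 genes was 9.08 on the log2 scale in A2B1 and 10.0 in A2C12, with the other lines between 9.34 and 9.79. In A2B1 the result rested on 1 of its 2 arrays. The gene median was 8.67 on A2B1 replicate 1 and 9.40 on A2B1 unnumbered, against 8.30 on control 1 and 7.73 on control 2. The unnumbered array was higher for 36 of the 37 genes, and at least 2-fold higher for 15, against 5.66% of all tested probe sets. The median log2 difference, unnumbered minus replicate 1, was 0.91 over the 37 genes and -0.12 over all tested probe sets. Without replicate 1 the line had more of the 37 genes called higher, and without the unnumbered array or without control 2 it had fewer. Each of these fits leaves 1 array in a group. The share of all tested probe sets called in them is not given here, so their counts cannot be set against it. With all arrays that share was 13.6% in A2B1.

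On A2B1 replicate 1, 11 genes lay at or below control 1. That array also had the lowest cycling-cell sum of the tumour arrays, 5918 against 19120 on A2B1 unnumbered, and the highest actin 3' to 5' ratio, 1.32 against 1.11. Its summed type II markers were 147, against 56.3 on the unnumbered array, and its myeloid sum 1697 against 918. The part of these in its low nucleolar signals was not tested.

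Whether the genes differed among the 11 lines beyond the spread between arrays of a line was tested with a moderated F-test. None of the 37 passed, against 3.42% of all tested probe sets. The test takes no account of a shift that unnumbered arrays shared: the difference of unnumbered minus numbered arrays correlated at over 0.1 in 12 of 15 pairs of lines, up to 0.538 for gammaA7 and gammaB8, and the 5 lines with 1 array have only unnumbered ones. With the label of the array (unnumbered, 1 or 2) as a replicate block over the 22 tumour arrays, the count was again 0 of the 37, against 6.06% of all. At an unadjusted p under 0.05 there were 8 of the 37, against 21.4% of all. The smallest adjusted p was 0.058 for Polr1a, whose line means ran from 187 in gammaD12 to 475 in A2C12. Nolc1 came next at 0.16, then Ftsj3 at 0.18, Nop10 at 0.18 and Rrp1b at 0.19. Line means spanned a median of 1.07 on the log2 scale over the 37 genes, against 0.86 over all tested probe sets, the widest being Pa2g4 at 1.71.

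The answer among lines rested on which arrays were taken. Without the unnumbered array of A2B1, 9 of the 37 passed (10.3% of all tested probe sets), and with the numbered arrays alone 21 did (25.8%). With the numbered arrays of the 4 lines other than cRAF_cMYC and gammaA7, 34 did (67.8%). In these 3 settings A2B1 was represented by replicate 1 alone, the array lowest for 29 of the 37 genes. In the first setting the count came from a fit with the filter redone on the arrays left. The share beside it came from a fit with the filter over all arrays. On numbered arrays without A2B1 and without the control arrays, the count was 7 over 5 lines (20.7% of all) and 18 over A2C12, B3 and gammaB8 (46.6%). The fit of numbered arrays alone held the control arrays, and that of the 4 lines did not. A change of count between these fits is thus not that of A2B1 alone. The median Spearman correlation over 11 lines was 0.31 over the 666 pairs of the 37 genes, against 0.01 over pairs of all tested probe sets. Without A2B1 it was 0.18 over the pairs of the 37 genes. The gene median correlated with the median of the cycling-cell markers at 0.84 over 11 lines and 0.69 without A2B1. All these values share their arrays.

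The last comparison set the genes against the signal of Myc. The Myc signal was 85.8 on A2B1 replicate 1 and 181 to 517 on the other tumour arrays, against 283 on control 1 and 79.8 on control 2, so the tumour arrays overlapped control 1. By line it was lowest in A2B1 at 223 and highest in A2C12 at 491. Whether this probe set reads the transgene's RNA was not tested. Over the 11 line means, the slope of 0 of the 37 genes on Myc passed the test (0% of all tested probe sets in either direction), with a smallest adjusted p of 0.096. At an unadjusted p under 0.05 there were 20 of the 37, against 16.4% of all.

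As a description, Pearson's r with Myc over 11 lines was positive for all 37 genes, with a median of 0.60, against -0.04 over all tested probe sets. The median Spearman rho of the 37 genes was 0.46. Nop58 had the highest r, 0.89, followed by Ftsj3 at 0.83 and Nop16 at 0.80. The lowest were Ubtf at 0.01, Odc1 at 0.10 and Rrp1 at 0.16. Nop58 stayed at 0.92 without A2B1 and at 0.87 over the 9 lines left without A2B1 and A2C12, the lines with the lowest and the highest Myc. Over the 22 tumour arrays the r of Nop58 was 0.80, and it was 0.49 without A2B1 replicate 1. Its slope over lines did not pass the test. For Ran, r was 0.50 over 11 lines and -0.09 without A2B1, and for Pa2g4 0.38 and -0.13. The median r over the 37 genes was 0.38 without A2B1 and 0.32 over those 9 lines, against 0.0004 and -0.01 over all tested probe sets.

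Array by array the same dependence appeared. Over the 22 tumour arrays, with the line as a random block, 26 of the 37 genes had a positive slope on Myc past the test, against 8.45% of all tested probe sets. Without A2B1 replicate 1 it was 1 of the 37, against 0.0913% of all. The median r was 0.65 over the 22 arrays and 0.35 without that array, against -0.05 and 0.04 over all tested probe sets. Over all 24 arrays, which mixes lines and control, the median r was 0.71, against -0.06 over all tested probe sets.

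**Figure D4:**
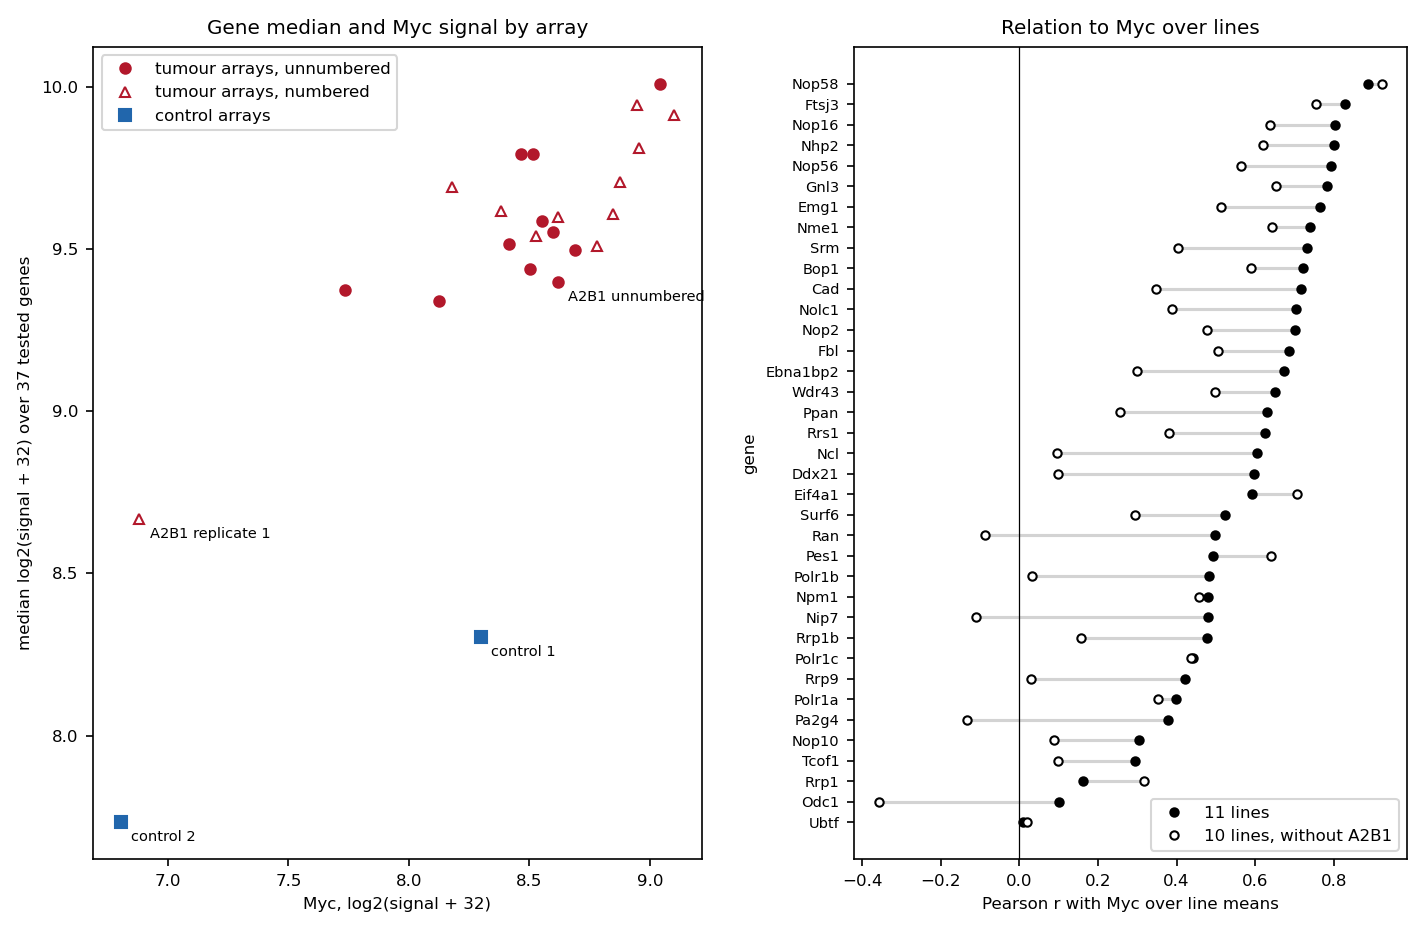
Left, the median log2(signal + 32) over the 37 tested genes against that of Myc on each array (filled circles, unnumbered tumour arrays; triangles, numbered tumour arrays; squares, controls). Right, Pearson's r of each gene with Myc over 11 line means (filled) and over 10 lines without A2B1 (open). A2B1 replicate 1 lies apart at the lower left of the tumour arrays, control 1 has a low gene median at a Myc signal within the tumour range, and r is lower without A2B1 for most genes.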

How the data were processed

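The authors deposited 1 intensity signal per probe set and array on a linear scale, made with GCOS per the submitters' processing notes, with the version, background correction and detection calls not given in the sources used here. The mean signal after trimming 2% of probe sets at each end was 250.1 to 250.2 on every array, so a difference here is a change in share of the measured RNA and not an amount per cell. The 24 arrays limit the precision. Of 12422 probe sets other than Affymetrix controls, 7670 were tested: those above their array's median on at least 2 arrays.

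Signals were transformed as log2(signal + 32), which compresses differences among dim signals. With limma 3.58.1 in R 4.3.3, the means of the 11 lines were compared with the 2 control arrays, and in a further fit 12 group means were fitted to 24 arrays (each line against control, and a moderated F-test over lines). Another fit gave each probe set's slope on Myc over 11 line means. Adjusted p-values are limma's with Benjamini-Hochberg adjustment over all tested probe sets. The fits assume equal spread in lines and controls. They were also run on simulated data of independent normal noise with added changes. These data held no other spread between lines, no shift shared by arrays and no wrong labels. They therefore cannot show how the fits behave under such features.

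The members, roles and wider lists were chosen with earlier results of these data known. Named in full were Ncl, Npm1, Fbl, Ubtf, Odc1, Eif4e, Myc and the gene with the largest difference per role, as well as each gene not called, the 5 smallest F-test p-values, the extremes of the Myc relation, and the largest rise and fall per wider list. Alternatives were other scalings (quantile normalization, median centring), offsets and filters, leaving out arrays, lines or controls, a block for the replicate number and averaging of probe sets. Differences between replicates 1 and 2 correlated between lines at -0.0332 to 0.0469, except at 0.816 between cRAF_cMYC and gammaA7, so the numbers were not taken to pair arrays.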

Additional observations from a re-analysis of the deposited data

Results flagged for a closer look

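The files hold 4 further probe sets of these genes that the comparisons above did not use and that were called higher in the lines. A further probe set of Nop16 had a log2 difference, lines minus control, of 1.4684, at 516 ± 123 (SD, n = 11 lines) against 234 and 106 on controls 1 and 2, larger than the 0.75 of the brighter probe set. A further probe set of Nip7 had a difference of 1.1363, at 57.5 ± 20.2 against 13.1 and 2.03. A probe set annotated to both Rasl2-9 and Ran had a difference of 2.3001, at 9847 ± 1160 against 2850 and 1316. The probe set shared by Mrto4 and its 2 pseudogenes had a difference of 1.7257, at 574 ± 124 against 303 and 60.6, and which of the 3 it reads was not tested.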

How the results depend on the processing

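Of 1591 values of single genes under an alternative, 1548 kept their direction and their side of the threshold, 24 were called only under the alternative, 15 lost the call and 4 changed sign. None of the 4 was called in either setting: the log2 difference of Polr1c, averaged over its probe sets, was -0.44 (limma adjusted p = 0.037, under 2-fold), the log2 difference of Ubtf was -0.035 without control 1 and 0.23 without control 2, and the log2 difference of Eif4a1 was -0.060 without control 2, 0.17 without control 1 and -0.0067 on unnumbered arrays alone. Beside dropping the fold threshold, calls were gained by Polr1a, Tcof1, Surf6 and Rrp1b (quantile normalization, median centring), Nop10, Nop16, Polr1c and Odc1 (median centring), Surf6 also with an offset of 1, Surf6 and Nop16 without control 1, Tcof1 on numbered arrays and Nop16 with probe sets averaged. Calls were lost for Rrp1 (8 settings), Fbl, Rrs1, Cad, Pa2g4, Bop1 and Nme1, the last 3 only when probe sets of a gene were averaged. The count called higher in the lines was 25, with 27 under quantile normalization, 33 under median centring, and 26 and 24 with offsets of 1 and 100. On leaving out an array, a line or a control, the share of all tested probe sets called is not given here. Counts from those fits are therefore left out. Of the 7670 tested probe sets, 1265 were called higher, 1671 under quantile normalization and 2421 under median centring. With offsets of 1 and 100 it was 1524 and 911. The median of all tested probe sets, -0.05, was 0.18 under quantile normalization and 0.49 under median centring. The share of calls that were higher, 43.6%, was 54.9% and 72.4% there and 54.4% with a stricter filter.

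In A2B1 the count of 18 became 28 under median centring, where the share of all tested probe sets in that line is not given here. The count in A2B1 was also higher or lower according to the array left out. The count past the F-test among lines, 0, was 1 with an offset of 100, 4 over the 6 lines with repeats, 21 on numbered arrays, 34 on numbered arrays without cRAF_cMYC and gammaA7, 7 and 18 on the same arrays without A2B1, and 0 to 9 on leaving out an array. The count following Myc, 0, was 26 over 22 arrays (8.45% of all tested probe sets) and 1 over 21 (0.0913%). It was 3 under median centring and without cRAF_cMYC and gammaA7, and 0 to 3 on leaving out a line (3 without gammaA7). For median centring and the fits without lines, the share of all is not given here. With the replicate block the count among lines was 0. Leaving out A2B1 replicate 1 in the relation to Myc, A2B1 on numbered arrays and the control arrays in the test among lines, and the lines cRAF_cMYC and gammaA7 were alternatives chosen after seeing the data. The cause of these changes was not tested.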
